A study of Homo sapiens with 12 samples.

Results

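The hypoxia response genes measured here were *HIF1A*, which encodes the oxygen-regulated subunit of the transcription factor HIF-1, and 9 genes that HIF-1 is known to act on or that act on HIF-1 (*VEGFA*, *ADM*, *NDRG1*, *EGLN1*, *EGLN3*, *CA9*, *ANKRD37*, *KDM3A* and *P4HA1*). They were followed in 4 human synovial sarcoma (SS) cell lines under a PI3K inhibitor. All probe sets annotated with exactly 1 of these 10 gene symbols were taken, which gave 19 of 54675 probe sets for 9 of the 10 genes. The annotation used here gave no probe set for *CA9*, so this gene was not analysed. SS is a sarcoma of soft tissue whose driver is an SS18-SSX fusion gene, which is SS18-SSX1 in Aska-SS and in Yamato-SS and SS18-SSX2 in SYO-1 and in Fuji. Each line was grown in RPMI-1640 with serum in a humidified incubator. It was kept for 24 h without ZSTK474, a pan-PI3K inhibitor (0 µM), or with it at 0.3 or 3 µM. RNA of each line at each dose was hybridised to 1 Affymetrix U133 Plus 2.0 array, which gave 12 arrays. The labels name no low-oxygen culture.

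HIF-1 is a dimer of HIF1A and ARNT. In the presence of oxygen the prolyl hydroxylases encoded by the EGLN genes modify the HIF1A protein, which lets the VHL ubiquitin ligase mark it for degradation, so that the protein can change with little change of its mRNA. When HIF-1 accumulates it raises genes of blood vessel growth, glucose use, pH control and matrix synthesis. PI3K and mTOR signaling is known to promote the synthesis of HIF1A protein. The arrays measured mRNA only, and HIF1A protein was not measured by them.

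The lines carried transcripts of the tumor type, though not all of them evenly. Of 10 synovial sarcoma marker genes, 10 were on average bright enough to be tested (the filter is given with the results). Among them *TLE1* had a normalized signal of 7260 to 24100. Others varied widely between arrays, such as *TWIST1* (31.9 to 4420) and *FZD10* (290 to 14300). None of the 7 leukocyte marker genes with a probe set was that bright, nor was any of 6 skeletal muscle marker genes. Of 8 endothelial marker genes *PECAM1* passed (98.6 to 172), and of 8 epithelial ones *KRT7*, *KRT18* and *MUC1* passed. The summed signal of the endothelial list, which is of interest for *VEGFA*, was 291 to 551 at 0 µM and 228 to 498 at 3 µM. RNA quality was read from the control probe sets at both ends of the actin transcript. Their log2 ratio, 3′ over 5′, rose from 0 to 3 µM by 0.55 in Fuji and by 0.02 to 0.18 in Aska-SS, SYO-1 and Yamato-SS. The same ratio of GAPDH changed by -0.14 to 0.14.

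Sequences upstream of the genes are shown because HIF-1 binds DNA at a short core, ACGTG or GCGTG, and because the members moved in opposite directions under the drug. Sequences of 250 bases before the start of each gene were taken from RefSeq (GRCh38.p14), written 5′ to 3′ along the gene, with each ACGTG or GCGTG on either strand in capitals. Both motifs were searched on both strands, and ACGTG overlaps its own reverse complement where CACGTG occurs. Matches were listed for 8 of the 10 genes. *VEGFA* had no entry, and *NDRG1* was left out of the listing, so the member with the largest rise is not covered. *ANKRD37*, whose signal fell, held 3 matches, *P4HA1*, which also fell, held 1, *KDM3A*, which rose, held 1 and *EGLN1*, whose probe sets differed, held 1.
*ANKRD37*, chr4:185396591-185396840, plus strand: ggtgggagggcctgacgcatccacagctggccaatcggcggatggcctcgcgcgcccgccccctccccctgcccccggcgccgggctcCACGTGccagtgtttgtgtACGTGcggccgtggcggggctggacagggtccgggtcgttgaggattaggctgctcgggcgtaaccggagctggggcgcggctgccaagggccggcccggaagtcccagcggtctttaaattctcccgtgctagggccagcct
*P4HA1*, chr10:73096867-73097116, minus strand: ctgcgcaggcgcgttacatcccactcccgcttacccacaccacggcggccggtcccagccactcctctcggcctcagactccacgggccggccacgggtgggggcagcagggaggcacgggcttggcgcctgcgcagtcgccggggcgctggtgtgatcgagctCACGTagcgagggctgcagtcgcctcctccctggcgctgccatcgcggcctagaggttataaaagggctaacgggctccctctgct
*KDM3A*, chr2:86441121-86441370, plus strand: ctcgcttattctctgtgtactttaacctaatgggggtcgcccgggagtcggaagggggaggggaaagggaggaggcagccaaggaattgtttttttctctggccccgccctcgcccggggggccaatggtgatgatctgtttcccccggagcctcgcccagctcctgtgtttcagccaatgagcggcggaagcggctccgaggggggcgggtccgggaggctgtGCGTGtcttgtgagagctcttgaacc
*EGLN1*, chr1:231422288-231422537, minus strand: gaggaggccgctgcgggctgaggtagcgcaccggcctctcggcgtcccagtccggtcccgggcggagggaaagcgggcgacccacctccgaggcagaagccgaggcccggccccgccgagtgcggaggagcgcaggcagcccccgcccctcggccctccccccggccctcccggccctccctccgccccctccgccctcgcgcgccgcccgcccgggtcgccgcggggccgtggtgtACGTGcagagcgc
The first bases of the matches lay 162, 161 and 143 bases before the start of *ANKRD37*, 86 before that of *P4HA1*, 26 before that of *KDM3A* and 13 before that of *EGLN1*. *HIF1A*, *ADM* and *CA9* held 1 match each and *EGLN3* none. At least 1 match was thus held by 7 of 8 members (87.5%) and by 43.2% of all 35116 upstream sequences of the same length. ACGTG was held by 18.5% of all and GCGTG by 32.2%. The members were picked for their known link to HIF-1, so their larger share says nothing about the response to the drug. It also counts *CA9* and *EGLN3*, whose expression was not tested here. A match is a description of the letters and was not tested as a binding site.

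At 3 µM ZSTK474 the members split. *NDRG1*, a stress-responsive gene, and *KDM3A*, a histone demethylase, rose. *VEGFA*, the main angiogenic growth factor, *ANKRD37*, a small ankyrin repeat protein, and *P4HA1*, a subunit of collagen prolyl hydroxylase, fell. The signal was quantile-normalized, raised to a floor of 12.1 (the 20th percentile) where lower, and log2-transformed. The brightest probe set stood for each gene, and genes were tested in limma if that probe set was on average brighter than 50% of all, in a model that holds the cell line as a block. Of the 10 members 8 passed this filter, and of these 2 rose and 3 fell, while 3 were not called (limma, adjusted p under 0.05). Among all 12132 genes tested, 43.7% were called at this dose, 22.6% as higher and 21.1% as lower, so the members' share is to be read against a drug effect on much of the transcriptome. The median log2 change of the 8 members was -0.24, beside 0.01 for all genes. In a fit without the cell line as a block, *NDRG1* was the 1 member called. The 4 lines served as replicates, and the spread between repeated cultures of a line was not measured.

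**Figure D1:**
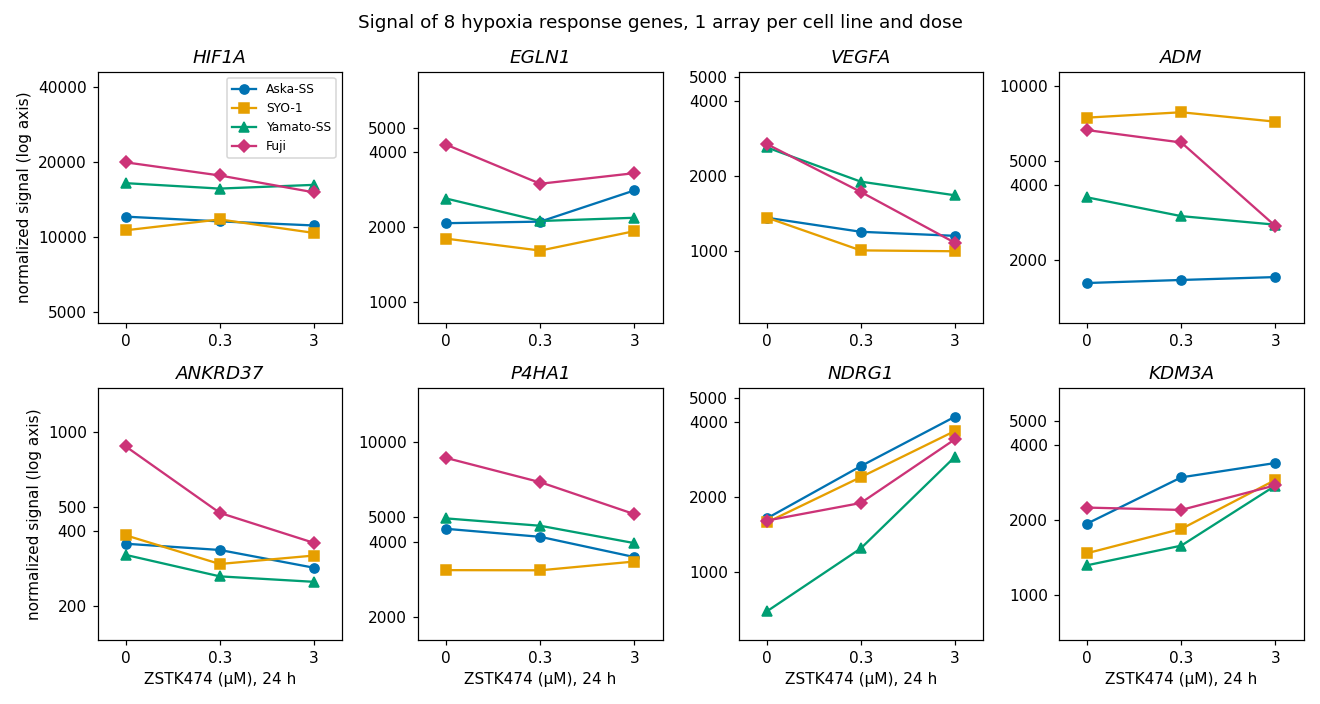
Normalized signal (log axis, spanning the same number of folds in each panel) of the 8 tested genes against the dose of ZSTK474, with 1 point per array and 1 coloured line per cell line. *NDRG1* and *KDM3A* were higher at 3 than at 0 µM in 4 of 4 lines, and *VEGFA* and *ANKRD37* were lower in 4 of 4.

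The level of *HIF1A* itself did not pass the test at any dose. In Aska-SS its normalized signal was 12094, 11577 and 11148 at 0, 0.3 and 3 µM. In SYO-1 it was 10662, 11787 and 10404. In Yamato-SS it was 16485, 15679 and 16227, and in Fuji 19984, 17700 and 15146. The signal was lower at 3 than at 0 µM in 4 of 4 lines, with log2 changes of -0.40 (Fuji) to -0.02 (Yamato-SS), and the ranges at the 3 doses overlapped. The log2 change at 3 µM was -0.14 (standard error 0.07, 95% confidence interval -0.30 to 0.01, n = 4 cell lines, limma adjusted p = 0.119). Without Fuji it was -0.06 (adjusted p = 0.539).

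The prolyl hydroxylase genes gave no single answer. *EGLN1* encodes PHD2, the main oxygen sensor that acts on HIF1A. Its brightest probe set had signals of 2064, 2094 and 2794 in Aska-SS at 0, 0.3 and 3 µM, of 1789, 1602 and 1917 in SYO-1, of 2592, 2106 and 2170 in Yamato-SS and of 4266, 2972 and 3278 in Fuji. The signal was higher at 3 than at 0 µM in Aska-SS and SYO-1 and lower in Yamato-SS and Fuji, with a log2 change of -0.02 (standard error 0.12, 95% confidence interval -0.28 to 0.23, adjusted p = 0.885). With the probe sets of the gene averaged the change was -0.34 (adjusted p = 0.054). *EGLN3*, which encodes PHD3 and is usually a strong HIF target, lay below the filter with both of its probe sets. The brighter one had signals of 34.8 to 41.1 at 0 µM, whereas those at 0.3 µM spanned 20.4 to 51.9 and those at 3 µM 7.01 to 70.7, close to the floor of 12.1. *EGLN2*, the third gene of the family, also lay below the filter.

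*VEGFA* fell in every line. Its brightest probe set had signals of 1361, 1195 and 1151 in Aska-SS at 0, 0.3 and 3 µM, of 1363, 1006 and 998 in SYO-1, of 2608, 1900 and 1675 in Yamato-SS and of 2691, 1728 and 1080 in Fuji. At 0 µM Yamato-SS and Fuji stood above Aska-SS and SYO-1, whereas at 3 µM Fuji lay beside Aska-SS and SYO-1. The log2 change at 3 µM was -0.66 (standard error 0.14, limma adjusted p = 0.00287), with values in single lines of -0.24 (Aska-SS) to -1.32 (Fuji), and without Fuji it was -0.44 (adjusted p = 0.00892). *ADM*, which encodes the vasodilator peptide adrenomedullin, behaved unequally across the lines. Its signals at 0, 0.3 and 3 µM were 1612, 1658 and 1703 in Aska-SS, 7441, 7820 and 7168 in SYO-1, 3559, 2992 and 2765 in Yamato-SS and 6630, 5913 and 2733 in Fuji. The log2 change at 3 µM was -1.28 in Fuji and ranged from -0.36 to 0.08 elsewhere, and the fitted change of -0.40 did not pass (standard error 0.18, adjusted p = 0.0903). Without Fuji the fitted change was -0.11 (adjusted p = 0.403).

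*ANKRD37* and *P4HA1* were called as lower at 3 µM, by calls that rested in part on Fuji. The signals of *ANKRD37* at 0, 0.3 and 3 µM were 357, 337 and 286 in Aska-SS, 386, 296 and 320 in SYO-1, 322, 264 and 251 in Yamato-SS and 878, 475 and 360 in Fuji. Its log2 change was -0.56 (standard error 0.17, adjusted p = 0.0203), lower in 4 of 4 lines, and without Fuji it was -0.32 (adjusted p = 0.135). Without quantile normalization it was -0.41 (adjusted p = 0.0743). The signals of *P4HA1* were 4500, 4179 and 3466 in Aska-SS, 3071, 3066 and 3325 in SYO-1, 4955, 4629 and 3943 in Yamato-SS and 8667, 6925 and 5155 in Fuji. It was lower at 3 than at 0 µM in 3 of 4 lines and higher by 0.11 in SYO-1. Its log2 change of -0.34 (standard error 0.11, adjusted p = 0.0265) was no longer called without Aska-SS (adjusted p = 0.105), without Yamato-SS (adjusted p = 0.0785) or without Fuji (-0.20, adjusted p = 0.164).

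*NDRG1* was the member with the largest change. It encodes a cytoplasmic protein that is raised by hypoxia, by differentiation and by several stresses. Its signals at 0, 0.3 and 3 µM were 1640, 2660 and 4199 in Aska-SS, 1580, 2403 and 3681 in SYO-1, 694, 1243 and 2897 in Yamato-SS and 1608, 1892 and 3408 in Fuji. The signal rose at each step in 4 of 4 lines, and every array at 3 µM lay above every array at 0 µM. The share of all genes that separate in this way was not counted. The log2 change at 3 µM was 1.43 (2.70-fold, standard error 0.14, limma adjusted p = 2.02e-05), with 1.08 in Fuji and 2.06 in Yamato-SS at the ends. In single lines this change lay above those of 91.6% (Fuji) to 99.2% (Yamato-SS) of all genes tested. The call held in 14 of 14 other settings, the fit without the cell line as a block included (adjusted p up to 0.0372).

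*KDM3A* (JMJD1A), which removes methyl groups from lysine 9 of histone H3 and needs oxygen and iron to do so, rose as well. Its signals at 0, 0.3 and 3 µM were 1931, 2960 and 3380 in Aska-SS, 1468, 1837 and 2889 in SYO-1, 1313, 1574 and 2740 in Yamato-SS and 2238, 2190 and 2750 in Fuji. Every array at 3 µM lay above every array at 0 µM here too, again without a count over all genes. The log2 change at 3 µM was 0.79 (1.72-fold, standard error 0.13, adjusted p = 0.000463), with 0.30 in Fuji and 0.81 or more elsewhere, and without Fuji it was 0.95 (adjusted p = 0.000274).

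For 8 of the 8 genes tested the change at 3 µM was lowest in Fuji, that is the largest fall or the smallest rise of the 4 lines. The share of all genes with their lowest change in Fuji was not counted, so this count has no background to be read against. In Fuji the changes of *VEGFA*, *ADM* and *ANKRD37* lay above those of 5.3%, 5.9% and 5.7% of all genes, in Aska-SS above those of 34.5%, 56.5% and 29.6%. The quartiles of the change of all genes at 3 µM were -0.47 and 0.50 in Fuji, and elsewhere -0.40 to -0.32 and 0.36 to 0.39. The 3′ to 5′ ratio of actin also rose most in Fuji (by 0.55), and its part in these values was not tested. With 1 array per line and dose the difference between lines in their response could not be tested.

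**Figure D2:**
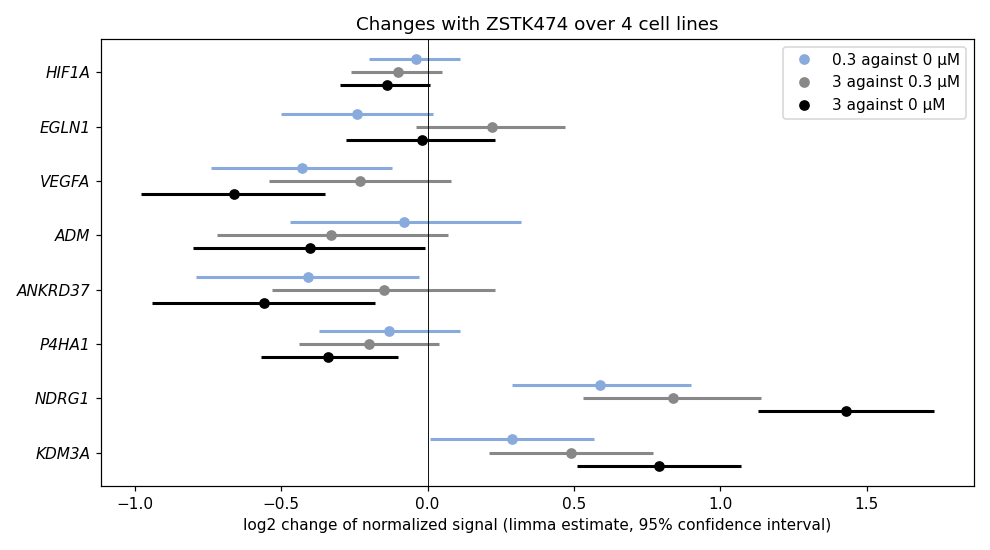
Log2 change of the 8 tested genes between the doses of ZSTK474, as limma estimates over 4 cell lines with 95% confidence intervals. Intervals of the change from 0 to 3 µM lie above 0 for *NDRG1* and *KDM3A*, below 0 for *VEGFA*, *ADM*, *ANKRD37* and *P4HA1*, though *ADM* did not pass after adjustment, and include 0 for *HIF1A* and *EGLN1*.

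At 0.3 µM 1 of the 8 members was called, beside 7.92% of all genes (4.57% as higher and 3.35% as lower). The share of all genes rested on 961 calls, whereas 81 genes were called without Fuji and 1 without Aska-SS. *NDRG1* had a log2 change of 0.59 (1.51-fold, standard error 0.14, adjusted p = 0.0281) and was higher in 4 of 4 lines. The call of *NDRG1* was lost without Aska-SS (adjusted p = 0.151), SYO-1 (adjusted p = 0.0863) or Fuji (adjusted p = 0.0576). None was called as lower by limma. At an unadjusted p under 0.05 in limma 2 members were higher and 2 lower, beside 1662 and 1542 of all 12132 genes. *VEGFA* had a log2 change of -0.43 (adjusted p = 0.0846), *ANKRD37* of -0.41 (adjusted p = 0.156) and *KDM3A* of 0.29 (adjusted p = 0.171). The change of *ANKRD37* was -0.25 without Fuji (adjusted p = 0.409), and that of *KDM3A* was 0.18 without Aska-SS (adjusted p = 0.519) and was called with array weights (0.37, adjusted p = 0.0327). Both *VEGFA* and *ANKRD37* were lower than at 0 µM in 4 of 4 lines, and *VEGFA* was called with array weights (-0.37, adjusted p = 0.0339) and with the arrays of both doses alone (adjusted p = 0.027).

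Between 0.3 and 3 µM 2 members were called, beside 15.3% of all genes (7.25% as higher and 8.09% as lower). *NDRG1* was higher at 3 than at 0.3 µM by 0.84 (standard error 0.14, adjusted p = 0.00388) and *KDM3A* by 0.49 (standard error 0.13, adjusted p = 0.0245), each in 4 of 4 lines. The call of *KDM3A* was lost without SYO-1 (0.44, adjusted p = 0.137) and without Yamato-SS (0.39, adjusted p = 0.12). The log2 change of *VEGFA* between the doses was -0.23 (95% confidence interval -0.54 to 0.08, adjusted p = 0.311) and that of *ADM* -0.33 (adjusted p = 0.251), with -1.11 in Fuji. Without Fuji they were -0.08 (adjusted p = 0.662) and -0.07 (adjusted p = 0.707). The 3 comparisons share their arrays and are not independent of each other.

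The lines also differed in the level of the members over the 3 doses as a whole. In a limma F test of the cell line with the dose kept in the model, 8 of 8 members differed, beside 81.7% of all genes. The 3 doses of a line stood in for replicates here, so the test does not measure the spread between repeated cultures. *ADM* differed most, with a geometric mean signal over the 3 doses of 7470 in SYO-1, 4750 in Fuji, 3090 in Yamato-SS and 1660 in Aska-SS, a range of 4.51-fold (adjusted p = 8.59e-06). The signals of SYO-1 lay above all those of Fuji, and those of Aska-SS below all those of Yamato-SS, while Fuji and Yamato-SS overlapped. *P4HA1* was highest in Fuji (6760) and lowest in SYO-1 (3150), with Yamato-SS and Aska-SS overlapping between them (adjusted p = 4.88e-05). *HIF1A* had geometric means of 17500 in Fuji and 16100 in Yamato-SS, which overlapped, and of 11600 in Aska-SS and 10900 in SYO-1, which overlapped too (adjusted p = 1.5e-05). *EGLN1* was highest in Fuji (3460) and lowest in SYO-1 (1760). For *VEGFA*, *NDRG1*, *ANKRD37* and *KDM3A* the ranges of all neighbouring lines overlapped, and their geometric means differed by 1.51- to 1.94-fold.

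Probe sets of 1 gene did not always move alike. Of the 19 probe sets 13 passed the filter, and in a fit over all 27306 probe sets kept 2 were higher and 6 lower at 3 µM, beside 39.4% called among all, 19.6% as higher and 19.8% as lower. *VEGFA* had 4 probe sets. The brightest (210512_s_at) and 210513_s_at were lower in 4 of 4 lines, by log2 changes of -0.66 (adjusted p = 0.00298) and -0.77 (adjusted p = 0.00484), as was 211527_x_at (-0.65, adjusted p = 0.0336). The fourth, 212171_x_at, was higher by 0.20 in SYO-1 and did not pass (-0.41, adjusted p = 0.0757). Probe sets whose name ends in x_at can also bind other transcripts. Of the 3 *EGLN1* probe sets tested, 223046_at had a log2 change of -0.02, whereas 221497_x_at was called as lower (-0.54, adjusted p = 0.00828) and 224314_s_at had a change of -0.45 (adjusted p = 0.0508), both lower in 4 of 4 lines. At 0.3 µM 221497_x_at was also called (-0.53, adjusted p = 0.0472). The fourth *EGLN1* probe set and the second ones of *ANKRD37*, *KDM3A* and *P4HA1* lay below the filter, at signals of at most 68.3.

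**Figure D3:**
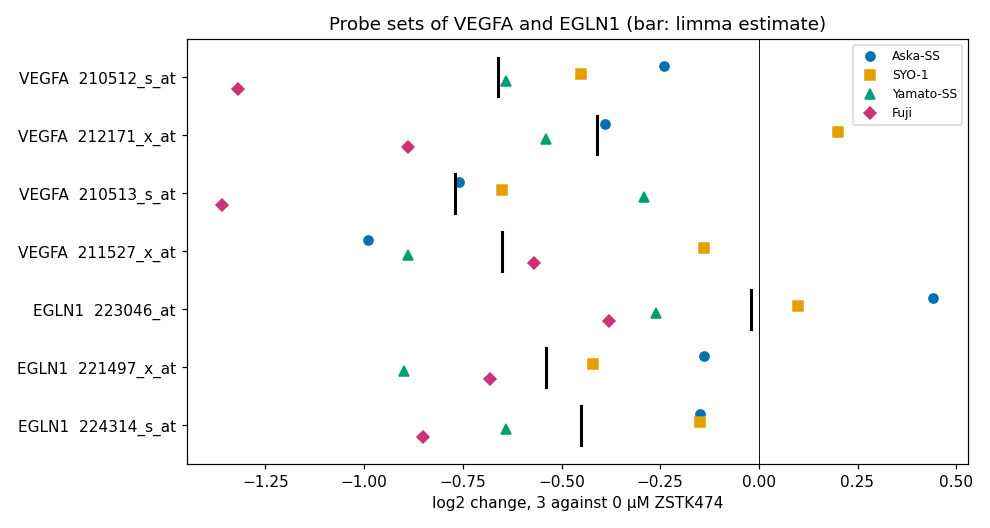
Log2 change from 0 to 3 µM ZSTK474 for the probe sets of *VEGFA* and *EGLN1* that passed the filter, with 1 point per cell line and a black bar at the limma estimate. The *VEGFA* estimates lie between -0.77 and -0.41 and those of *EGLN1* between -0.54 and -0.02.

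The likeness of the members' profiles was described after each line's own level was taken out, which leaves mostly the dose changes given above, so the signs of the values follow from those changes. Over the 12 arrays, the line-centred log2 signals of *VEGFA* and *ANKRD37* had a Pearson correlation of 0.95, and those of *NDRG1* and *KDM3A* of 0.95, while *VEGFA* and *NDRG1* had -0.76. *HIF1A*, whose change did not pass, had values of 0.75 to 0.82 with *VEGFA*, *ADM*, *ANKRD37* and *P4HA1*, and of -0.49 and -0.36 with *NDRG1* and *KDM3A*. These values are descriptions, since the 12 arrays share 4 lines and 3 doses. How far the values of 0.75 to 0.82 rest on Fuji was not tested. In Fuji *HIF1A* changed by -0.40 at 3 µM (-0.12 to -0.02 elsewhere) and *ADM* by -1.28 (-0.36 to 0.08 elsewhere). Correlations without Fuji were not computed. Of all genes the 5 most like *VEGFA* by this measure were *BOLA2*, *PSEN2*, *LARP1B*, *PPP2CB* and *GCLM*, at 0.967 to 0.984, and 230 genes had a correlation over 0.9. The 5 most like *HIF1A* were *MBNL3*, *COL15A1*, *NSMCE3*, *AOPEP* and *LHFPL2*, at 0.945 to 0.957, with 35 genes over 0.9.

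**Figure D4:**
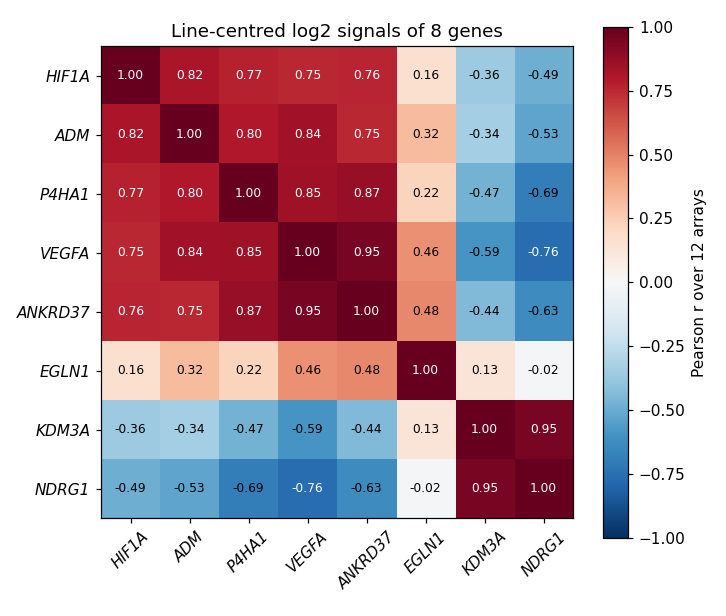
Pearson correlation, over 12 arrays, of the log2 signals of the 8 tested genes after each cell line's mean was taken out, with the value in each cell and colour from -1 to 1. *HIF1A*, *ADM*, *P4HA1*, *VEGFA* and *ANKRD37* have values of 0.75 to 0.95 with each other, and *KDM3A* and *NDRG1* of 0.95.

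Of 13 genes of oxygen sensing tested at 3 µM 4 rose, 4 fell and 5 did not pass, with a median log2 change of -0.02. The 61.5% called stood beside 43.7% of all genes, which were also called in both directions (22.6% higher and 21.1% lower). This list and those below were chosen with earlier results of these data known, so their shares are descriptions only. *ARNT*, the constant subunit of HIF-1, rose by 0.75 (log2 change, adjusted p = 0.000295), with signals of 528 to 840 at 0 µM and 995 to 1309 at 3 µM. *CREBBP* and *EP300*, acetyltransferases that bind HIF, rose by 0.90 (adjusted p = 1.34e-05) and 0.73 (adjusted p = 0.000945), and *CITED2*, a protein that competes with HIF for them, by 0.67 (adjusted p = 0.00733). *RBX1*, *ELOC*, *CUL2* and *ELOB*, all parts of the VHL ligase, fell by 0.67, 0.49, 0.38 and 0.31 (limma adjusted p = 0.000472, 0.000462, 0.00299 and 0.0219). *ELOB* was higher in 1 of the lines. Without Aska-SS, SYO-1 or Fuji 3 genes of the list were called as lower, where the full data gave 4. *VHL* itself (0.03, adjusted p = 0.889) and *HIF1AN*, the asparaginyl hydroxylase of HIF (0.06, adjusted p = 0.748), did not pass. *EPAS1*, which encodes HIF2A, did not pass either (-0.03, adjusted p = 0.93), and its signal was 973 to 1407 in Yamato-SS and 114 to 282 in the other lines. *HIF3A* and *ARNT2* lay below the filter.

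Of 11 angiogenic ligand and receptor genes tested, *VEGFA* among them, 2 fell, 1 rose and 8 did not pass, so that 27.3% were called beside 43.7% of all genes. *FLT1*, a VEGF receptor, fell by 0.66 (adjusted p = 0.0304), and the VEGF co-receptor gene *NRP1* rose by 0.37 (adjusted p = 0.0059), at 0.3 µM by 0.36 (adjusted p = 0.0336). *VEGFB* and *PGF*, other ligands of the family, had log2 changes of 0.15 and 0.29 and did not pass. Without quantile normalization 2 genes of the list rose and 1 fell, beside 5529 of 12128 genes called in all. Without Yamato-SS 3 rose and 2 fell, beside 4891 of 12132 genes called. With each gene's probe sets averaged 1 fell, beside 5019 of 12132 called. The adrenomedullin receptor genes *CALCRL*, *RAMP2* and *RAMP3* lay below the filter.

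HIF targets of glucose use fell, whereas genes of pH control, mitochondria and stress were called in both directions, as all genes were (22.6% higher and 21.1% lower). Of 21 genes of glucose use 15 fell, none rose and 6 did not pass, with a median log2 change of -0.75. The 71.4% called as lower stood beside 21.1% of all genes. Since the list was chosen with earlier results of these data known, this share is no independent evidence of a fall. In Fuji the median was -1.27, elsewhere -0.53 to -0.48. At an unadjusted p under 0.05 in limma 0 were higher as well. *TPI1*, *PGK1* and *LDHA*, enzymes of glycolysis, fell by 0.92, 0.99 and 0.80, each in 4 of 4 lines, as did *PGAM1* and *ENO1*. Of 21 genes of the other list 6 rose, 7 fell and 8 did not pass (61.9% called), with a median of -0.08. The genes that rose beside *NDRG1* were *MXI1*, an antagonist of MYC (1.42, adjusted p = 6.99e-06), the nuclear receptor gene *RORA* (1.38, adjusted p = 4.23e-05), *ZNF395* (1.18, adjusted p = 0.000485), *WSB1* (0.78, adjusted p = 6.04e-05) and *BNIP3L*, a receptor of mitophagy (0.64, adjusted p = 0.000322). All 5 were higher in 4 of 4 lines. *DDIT4*, an inhibitor of mTORC1, fell by 1.67 (adjusted p = 0.000121), the transferrin receptor gene *TFRC* by 1.08 (adjusted p = 0.000203), *CA12*, a carbonic anhydrase of the cell surface, by 0.98 (adjusted p = 0.000828), and *HILPDA*, a lipid droplet protein, by 0.75 (adjusted p = 0.000765). These 4 were lower in 4 of 4 lines. *BNIP3*, the mitophagy gene most like *BNIP3L*, had a change of -0.08 (adjusted p = 0.776).

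**Figure D5:**
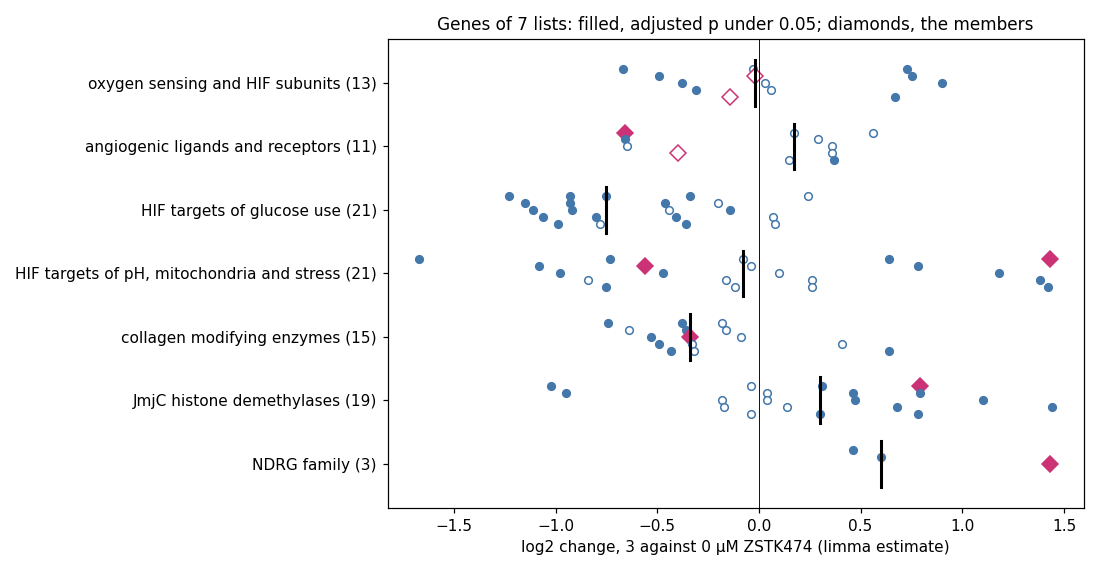
Log2 change between 0 and 3 µM ZSTK474 of each gene of 7 lists (limma estimates, number of genes tested in brackets), filled where the adjusted p was under 0.05, with members as diamonds and a black bar at the list's median. The list of glucose use has its median at -0.75 and the JmjC demethylases at 0.30.

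The families of the members gave further contrasts. Of 15 collagen-modifying enzyme genes 7 fell, 1 rose and 7 did not pass, with a median log2 change of -0.34. The 53.3% called stood beside 43.7% of all genes. *P4HA2*, the paralog of *P4HA1*, fell by 0.74 (adjusted p = 0.00064), with signals of 930 to 2691 at 0 µM and 418 to 1563 at 3 µM. *P4HB*, which encodes the beta subunit of the same enzyme, fell by 0.38 (adjusted p = 0.00574) and *SERPINH1*, the collagen chaperone, by 0.53 (adjusted p = 0.000105). *PLOD2*, a lysyl hydroxylase, fell by 0.49 (adjusted p = 0.00831), and *CRTAP*, part of the prolyl 3-hydroxylase complex, was the gene that rose (0.64, adjusted p = 0.000115). *P4HA3* lay below the filter. Without Aska-SS 5 genes of this list were called, beside 4256 of all 12132 genes.

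Of 19 JmjC histone demethylase genes, the family of *KDM3A*, 10 rose, 2 fell and 7 did not pass, with a median log2 change of 0.30. The 63.2% called stood beside 43.7% of all genes, in a list that was likewise chosen with earlier results known. The paralogs of *KDM3A* rose too, *JMJD1C* by 0.78 (adjusted p = 3.12e-05) and *KDM3B* by 0.31 (adjusted p = 0.00821). *KDM7A* rose by 1.44 (adjusted p = 6.47e-06) and *KDM5B* by 1.10 (adjusted p = 2.85e-05). The genes that fell were *JMJD6* (-1.02, adjusted p = 3.16e-05) and *RIOX1* (-0.95, adjusted p = 0.00013), which encode hydroxylases of this fold. With each gene's probe sets averaged 8 rose and 4 fell, beside 2334 and 2685 of all 12132 genes. In the fit without the cell line as a block the 10 that rose no longer passed (5 were higher at an unadjusted p under 0.05 in limma) and 2 fell. Of the NDRG family *NDRG3* rose by 0.46 (adjusted p = 0.00834), in 4 of 4 lines, and *NDRG2* by 0.60 (adjusted p = 0.0155), in 3 of 4 lines, while *NDRG4* lay below the filter.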

How the data were processed

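The files hold MAS5 signal intensities that the authors deposited without log transformation, scaled to a 2% trimmed mean of 500.1 on each of the 12 arrays. No version of MAS5 was given in the sources used here. The columns still differed in distribution (medians 60.1 to 85.3), so the quantile normalization that the methods name (there in GeneSpring) was applied here, and values under the 20th percentile (12.1) were set to it before the log2 step. Of the 54675 probe sets, 62 controls were dropped. The annotation gave 1 symbol for 41097, several for 1801 and none for 11777. Probe sets with a mean over the median of all were tested (27306), and each of 12132 genes was read from its brightest one.

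Linear models were fitted in limma 3.58.1 under R 4.3.3 over all 12 arrays, with dose and cell line as factors, a variance trend and Benjamini-Hochberg adjustment over all genes, and were checked on simulated data. The cell line pairs the arrays. Their deviations from the mean of their dose correlated by 0.828 to 0.931 in the same line and by -0.461 to -0.0892 in different lines. Taking out that mean by itself pushes the values between different lines below 0. The members and gene lists were chosen with earlier results of these data known. Beside the members and their families, the text names in each list, of the genes that passed the test and are no members, up to 5 with the smallest adjusted p and those that went against the majority. *CUL2*, *CITED2*, *ELOB*, *VHL*, *HIF1AN*, *VEGFB*, *PGF*, *HILPDA*, *CA12*, *BNIP3* and the *ADM* receptor genes were added after their values were seen. The alternatives dropped quantile normalization, the filter, the variance trend, the block or 1 cell line, added 16 in place of the floor, moved the floor to the 40th or the filter to the 65th percentile, averaged the probe sets of a gene, weighted the arrays or used those of 2 doses. The number of arrays limits the precision.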

Additional observations from a re-analysis of the deposited data

Results flagged for a closer look

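In groups of 4 cell lines, 48 sets of values of the 8 tested genes (the log2 signal at each dose and the log2 change in each comparison) were examined for a line that stood apart from the other 3, and 3 did. Chance flags about 1 in 20 such sets. For *ADM* the change from 0.3 to 3 µM was -1.11 in Fuji, whereas the other lines gave -0.13 to 0.04. For *ANKRD37* the change from 0 to 3 µM was -1.29 in Fuji, whereas the other lines gave -0.36 to -0.27. The log2 signal of *NDRG1* at 0 µM was 9.44 in Yamato-SS and 10.63 to 10.68 elsewhere. The same array is the baseline of the change of *NDRG1* in this line, the largest of the 4 at 3 µM (2.06), which is thus no separate observation. At 3 µM the normalized signal was 2897 in Yamato-SS and 3408 to 4199 elsewhere.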

How the results depend on the processing

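Of 336 values of single members under other settings, 301 kept their direction and their side of the threshold, 28 were no longer called, 3 were newly called and 4 changed sign. Those 4 were *EGLN1* at 3 µM with array weights (0.05), without Yamato-SS (0.05) and without Fuji (0.09; -0.18 to 0.09 over the lines left out in turn), and *HIF1A* at 0.3 µM without Fuji (0; -0.10 to 0). The replicates were the cell lines, and when limma was run without this block, the pairing being left out, 383 genes were called at 3 µM, and 0 at 0.3 µM (319 at an unadjusted p under 0.05) and 0 between the doses (620). Among the members *NDRG1* then rose at 3 µM (1 gene, 1 probe set), while 0 fell (0 at an unadjusted p under 0.05) and 0 were called in the other comparisons (0 and 1). In that fit the lists had 1 call (oxygen sensing), 0 (angiogenic, 0 at an unadjusted p under 0.05), 4 (glucose use), 2 (pH, mitochondria and stress), 0 (collagen, 2 unadjusted), 2 (JmjC) and 1 (NDRG). Without a filter on dim probe sets 1 member fell at 3 µM, 5 member probe sets were called, 0 members rose at 0.3 µM (1 unadjusted) and 1 rose between the doses, with 99 and 1063 genes called in the last 2 comparisons. With the arrays of the 2 doses 1 member fell at 3 µM and 1 at 0.3 µM, with 5 probe sets. Without a variance trend 150 and 1114 genes were called at 0.3 µM and between the doses, with 0 (1 unadjusted) and 1 members rising. With array weights 1 member fell at 3 µM (5 probe sets), 2 rose and 1 fell at 0.3 µM, where 2016 genes were called. With averaged probe sets 1 angiogenic gene was called.

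Leaving out each cell line gave 4256 to 4891 genes called at 3 µM, 1 (without Aska-SS) to 351 at 0.3 µM and 593 (without SYO-1) to 1451 between the doses. Members that fell at 3 µM numbered 1 (without Fuji, *VEGFA*) to 3, those that rose 2 in each case, those that rose at 0.3 µM 0 to 1 and between the doses 1 to 2. Probe sets called numbered 5 to 9, angiogenic genes 2 to 5 and collagen-modifying genes 5 to 8. The cause of these shifts was not tested.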
